A study of Mus musculus with 6 samples.

Results

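The genes described here are 37 nucleolar ribosome assembly factors, listed by symbol. A probe set was taken for a gene when the platform annotation gave it that gene's symbol and no other, which found 563 probe sets for 36 of the 37 genes, out of 20416 genes measured. Noc2l had no such probe set and was not analysed here. The RNA came from C2C12, an established line of mouse myoblasts whose cells fuse into myotubes in low serum. The 3 insulin cultures had been held in 100 nM insulin for 48 h, which the labels give as a way to reach insulin resistance, and the 3 control cultures received none. Both groups were grown in 10% fetal bovine serum, switched to 2% horse serum and used as myotubes between days 4 and 7, with fresh medium every 24 h. Arrays within a group are biological replicates per the labels, which do not say how the cultures were kept apart, so p-values measure only the spread between these arrays. All results come from 1 cell line and from RNA that was amplified from 25 ng before labelling.

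Ribosomes are assembled in the nucleolus, where RNA polymerase I transcribes a long precursor RNA that is methylated, pseudouridylated, folded and cleaved while ribosomal proteins bind to it. The work needs a large set of proteins that are not part of the finished ribosome, among them the small nucleolar ribonucleoproteins (snoRNPs), which modify the precursor, the small-subunit processome and the factors that carry the precursor of each subunit towards the cytoplasm. Growing and dividing cells keep this set high, and it is known as one of the gene groups that the transcription factor MYC can drive. In muscle, ribosome assembly is a known accompaniment of growth and of growth-factor signalling.

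The values are log2 expression values made by RMA, and a gene's value on an array is the median over its probe sets. A difference of 1 on this scale is a doubling. All 36 genes passed the filter on dim genes, which lay at 7.05, and the lowest of their means over the 6 arrays was 9.47. Array medians over all probe sets lay between 8.79 and 8.82. RMA makes the arrays alike in their overall distribution, so each change is relative to the other transcripts, and a rise in total RNA per cell would not be seen.

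Of the 36 factors, 21 (58.3%) were higher in insulin-treated than in untreated myotubes by limma at a Benjamini-Hochberg adjusted p of 0.05, where 9.56% of all 14291 tested genes were higher. None was lower by limma at an adjusted or an unadjusted p of 0.05. Of all 14291 tested genes 6.35% were lower after adjustment, and 1880 were lower at an unadjusted p of 0.05. All 36 differences were positive, against 49.4% of tested genes. Their median was 0.32 on the log2 scale with quartiles of 0.18 and 0.41, and the median of all tested genes was -0.0028. The rises were small: among the 21 genes they ran from 1.20-fold for Nhp2 to 1.86-fold for Dkc1, with a median of 0.40 on the log2 scale.

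In 27 of the 36 genes (75%) the 3 insulin arrays lay wholly above the 3 control arrays, as they did in 20.0% of tested genes. These 27 were the 21 that rose and 6 that did not pass the test (Nolc1, Nop2, Ebna1bp2, Pes1, Nop16 and Noc3l). The mean log2 level of the 36 genes was 11.49, 11.51 and 11.47 on insulin arrays 1 to 3, against 11.12, 11.20 and 11.18 on control arrays 1 to 3. The number that rose depended on the arrays and on how probe sets were summarised. It was 12 without insulin array 2 and 11 when each gene was read from its brightest probe set. On the same arrays 20 of 23 tested markers of dividing cells rose, against 9.56% of all tested genes. Of 18 myotube markers 6 fell, against 6.35% of all tested genes. Their part in the result was not tested, and in bulk samples a change in the share of a cell type and a change in RNA per cell cannot be told apart.

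**Figure D1:**
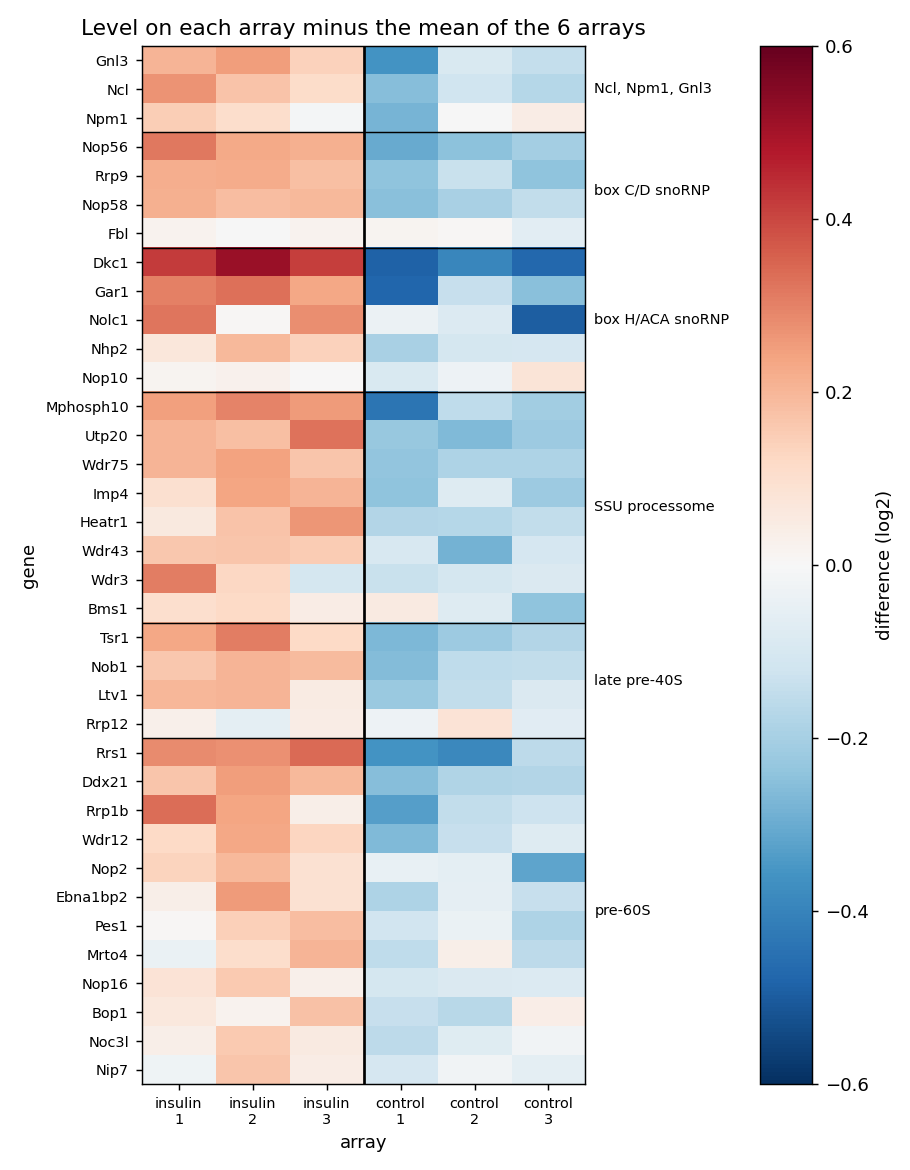
Log2 level of each of the 36 genes on each array, minus the gene's mean over the 6 arrays, with insulin arrays left of the line, control arrays right of it, and genes grouped by role. Most rows are red on all insulin arrays and blue on all controls, while Rrp12, Fbl and Nop10 are near white throughout.

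Promoters of these genes, most of which rose, were taken from RefSeq as windows of 300 bases (250 before and 50 after the annotated start, GRCm38.p6). The table held 32 of the 37 genes, 31 of them measured. Shown are Dkc1 and Gar1, which had the largest rises among genes with a window, and the genes that rose most among those whose windows hold CACGTG, the core E-box that MYC and MAX can bind, or CCGGAAG, the core of sites for ETS factors. Each sequence runs 5′ to 3′ in the direction of its gene. Capitals mark every match, on either strand and at any place, to CACGTG, to CCGGAAG or to TATAAA, the letters of a TATA box.
Dkc1, chrX:75095604-75095903, plus strand: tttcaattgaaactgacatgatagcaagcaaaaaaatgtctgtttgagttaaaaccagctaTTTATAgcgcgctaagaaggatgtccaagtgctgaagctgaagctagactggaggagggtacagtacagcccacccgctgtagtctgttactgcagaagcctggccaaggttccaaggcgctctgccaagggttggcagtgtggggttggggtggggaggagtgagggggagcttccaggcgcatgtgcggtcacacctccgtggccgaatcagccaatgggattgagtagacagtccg
Gar1, chr3:129831347-129831646, minus strand: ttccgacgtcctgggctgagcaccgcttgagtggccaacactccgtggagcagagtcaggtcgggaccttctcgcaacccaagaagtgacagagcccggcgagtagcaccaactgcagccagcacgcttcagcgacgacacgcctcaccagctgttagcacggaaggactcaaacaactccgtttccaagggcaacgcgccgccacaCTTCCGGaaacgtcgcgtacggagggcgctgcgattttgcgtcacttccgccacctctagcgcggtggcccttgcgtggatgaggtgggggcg
Mphosph10, chr7:64392187-64392486, minus strand: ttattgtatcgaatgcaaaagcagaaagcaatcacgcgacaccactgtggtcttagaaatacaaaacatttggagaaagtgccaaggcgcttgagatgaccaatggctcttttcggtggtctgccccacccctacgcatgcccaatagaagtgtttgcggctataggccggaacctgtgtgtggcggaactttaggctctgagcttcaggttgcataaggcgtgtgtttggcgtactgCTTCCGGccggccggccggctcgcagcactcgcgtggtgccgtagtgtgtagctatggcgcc
Utp20, chr10:88826765-88827064, minus strand: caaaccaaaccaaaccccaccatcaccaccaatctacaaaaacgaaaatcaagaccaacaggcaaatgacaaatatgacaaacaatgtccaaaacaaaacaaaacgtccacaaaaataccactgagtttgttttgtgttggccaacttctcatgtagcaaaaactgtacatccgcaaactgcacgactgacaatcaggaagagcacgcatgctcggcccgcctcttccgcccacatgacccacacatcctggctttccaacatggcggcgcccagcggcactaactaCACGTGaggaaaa
Tsr1, chr11:74897830-74898129, plus strand: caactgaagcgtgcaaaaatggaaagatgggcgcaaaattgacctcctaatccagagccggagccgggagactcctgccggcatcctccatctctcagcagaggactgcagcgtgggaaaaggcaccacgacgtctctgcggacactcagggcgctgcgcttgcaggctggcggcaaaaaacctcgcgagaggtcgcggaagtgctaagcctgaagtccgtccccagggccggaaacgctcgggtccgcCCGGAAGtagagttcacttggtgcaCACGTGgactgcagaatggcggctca
Imp4, chr1:34439579-34439878, plus strand: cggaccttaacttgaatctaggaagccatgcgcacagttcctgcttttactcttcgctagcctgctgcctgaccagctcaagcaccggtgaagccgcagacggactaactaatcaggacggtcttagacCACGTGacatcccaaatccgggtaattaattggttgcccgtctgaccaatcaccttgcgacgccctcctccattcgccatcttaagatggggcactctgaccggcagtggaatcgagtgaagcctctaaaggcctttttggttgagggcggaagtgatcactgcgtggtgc

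CCGGAAG stood in the window of 14 of the 32 genes (43.8%), against 17.6% of the 9737 tested genes with a window and 9.93% of all 27025 genes of the table. Among the 100 further ribosome assembly genes with a window the share was 42.0%, close to that of the 32. Of the 14, Gar1, Mphosph10, Tsr1, Heatr1, Nhp2 and Ltv1 rose. Nolc1, Nop2, Ebna1bp2, Wdr3, Bms1, Noc3l and Nip7 did not pass, and Noc2l was not analysed here. CCGGAAG thus stood in 6 of the 20 genes with a window that rose, a smaller share than among all 32. Whether either motif went with the rise was not tested. CACGTG stood in 7 of the 32 genes (21.9%), against 17.0% of the further assembly genes, 11.3% of tested genes and 8.09% of all genes. Of these 7, Utp20, Tsr1, Imp4, Wdr43 and Ltv1 rose, and Nop2 and Pes1 did not pass. Dkc1, which rose most, had neither motif in its window. Its 1 match to TATAAA lay on the reverse strand at bases 62 to 67, far before the annotated start, and was not read as a TATA box. TATAAA was found in 2 of the 32 genes (6.25%), in 7.0% of the further assembly genes and in 9.71% of tested genes. The core motif of NRF1, also searched and absent from the windows printed here, was found in 5 of the 32 genes (15.6%), in 17.0% of the further assembly genes and in 10.2% of tested genes. No match to one motif overlapped a match to another in these windows. The windows had a median GC content of 59.7%, against 60.3% in tested genes and 52.7% in the whole table. These are matches of letters within short windows, and binding was not measured.

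Box H/ACA snoRNPs carry out pseudouridylation and share a core of dyskerin, NHP2, NOP10 and GAR1. Of the genes of this core Dkc1, Gar1 and Nhp2 rose, and Nop10 did not pass. Dkc1 encodes dyskerin, the pseudouridine synthase, which also belongs to telomerase. Its log2 level was 10.89, 10.99 and 10.88 in insulin cultures 1 to 3, against 9.99, 10.08 and 10.00 in control cultures 1 to 3. The groups were far apart relative to their spread, at 10.92 ± 0.059 with insulin and 10.02 ± 0.05 in controls (mean ± SD, n = 3 each). The difference was 0.90 ± 0.066 (SE) with a limma adjusted p of 0.000293, which placed Dkc1 at rank 62 of 14291 genes by rise. Of its 14 probe sets 11 passed the test on their own, and the probe set with the highest mean gave 0.46 (limma adjusted p = 0.0273).

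Gar1, which binds the catalytic subunit and helps release the product, had log2 levels of 10.21, 10.23 and 10.13 with insulin and 9.43, 9.77 and 9.65 in controls. It rose 1.49-fold, by 0.58 ± 0.094 on the log2 scale (SE, limma adjusted p = 0.00623), with control 1 the lowest array. Nhp2, the RNA-binding core protein, stood at 12.98, 13.11 and 13.05 with insulin and 12.72, 12.81 and 12.81 in controls, without overlap. This was the smallest rise among the genes that passed, at 0.27 ± 0.067 (SE, limma adjusted p = 0.0325). Nop10, the small scaffold protein of the core, had 13.16, 13.17 and 13.14 with insulin and 13.05, 13.11 and 13.22 in controls. Its control arrays surrounded the insulin arrays, and the difference of 0.029 ± 0.068 did not pass (limma adjusted p = 0.82). Nolc1 (Nopp140), a chaperone of snoRNPs, was read at 11.13, 10.81 and 11.09 with insulin and 10.77, 10.73 and 10.31 in controls. Insulin 2 and control 1 were close together, and its difference of 0.41 ± 0.14 missed the threshold (limma adjusted p = 0.0848) although it was larger than that of Nhp2.

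Box C/D snoRNPs carry out ribose methylation with fibrillarin as their enzyme. Of their structural proteins Nop56 and Nop58 rose, while fibrillarin did not pass. Snu13, a further protein of this snoRNP that was listed with the further assembly genes, just missed the threshold. Its difference was 0.27 ± 0.076 on the log2 scale (SE, limma adjusted p = 0.0501). Nop56 had 12.98, 12.89 and 12.88 with insulin and 12.36, 12.42 and 12.46 in controls on the log2 scale, a rise of 0.50 ± 0.066 (SE, limma adjusted p = 0.00281). Its partner Nop58 had 12.40, 12.38 and 12.39 with insulin and 11.94, 12.00 and 12.05 in controls, a rise of 0.40 ± 0.062 (SE, limma adjusted p = 0.00558). In both genes the lowest insulin array was well above the highest control, and all tested probe sets of Nop56, 7 in number, passed on their own. Rrp9, the protein that marks the U3 snoRNP needed for small-subunit cleavage, was at 11.43, 11.44 and 11.40 with insulin and 10.97, 11.08 and 10.97 in controls. It rose by 0.41 ± 0.064 (SE, limma adjusted p = 0.00541), close to Nop58 in size. Fbl, fibrillarin itself, was at 12.36, 12.34 and 12.36 with insulin and 12.36, 12.35 and 12.27 in controls. Its groups overlapped and the difference was 0.026 ± 0.061 (SE, limma adjusted p = 0.822). The 5 probe sets of Fbl gave -0.084, 0.25, 0.026, 0.32 and 0.24 in order of rising level, so that the gene's median was the probe set at 0.026. When only its probe sets at or above their median level were used, Fbl passed, at 0.32 (limma adjusted p = 0.00695).

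Among 3 nucleolar proteins outside these complexes, Ncl and Gnl3 rose and Npm1 did not pass. Ncl (nucleolin), which binds the precursor RNA early and acts on polymerase I transcription, had 12.71, 12.61 and 12.55 with insulin and 12.19, 12.32 and 12.27 in controls. That was a rise of 0.36 ± 0.072 on the log2 scale (SE, limma adjusted p = 0.0135), without overlap of the groups. Gnl3 (nucleostemin), a GTPase high in dividing and stem cells, had 11.91, 11.96 and 11.85 with insulin and 11.35, 11.62 and 11.56 in controls. It rose by 0.40 ± 0.085 (SE, limma adjusted p = 0.0184), with control 1 the lowest array. Npm1 (nucleophosmin), a chaperone of histones and ribosomal particles, had 13.17, 13.12 and 13.01 with insulin and 12.74, 13.02 and 13.06 in controls. Insulin 3 lay below controls 2 and 3, and the difference of 0.16 ± 0.10 did not pass (limma adjusted p = 0.323). One of its 6 probe sets passed, at 0.72. Another 2 probe sets were annotated to Npm1 together with Gm9118 and Gm6477 and were left out, so signal from these look-alike loci in the remaining probe sets cannot be told apart.

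**Figure D2:**
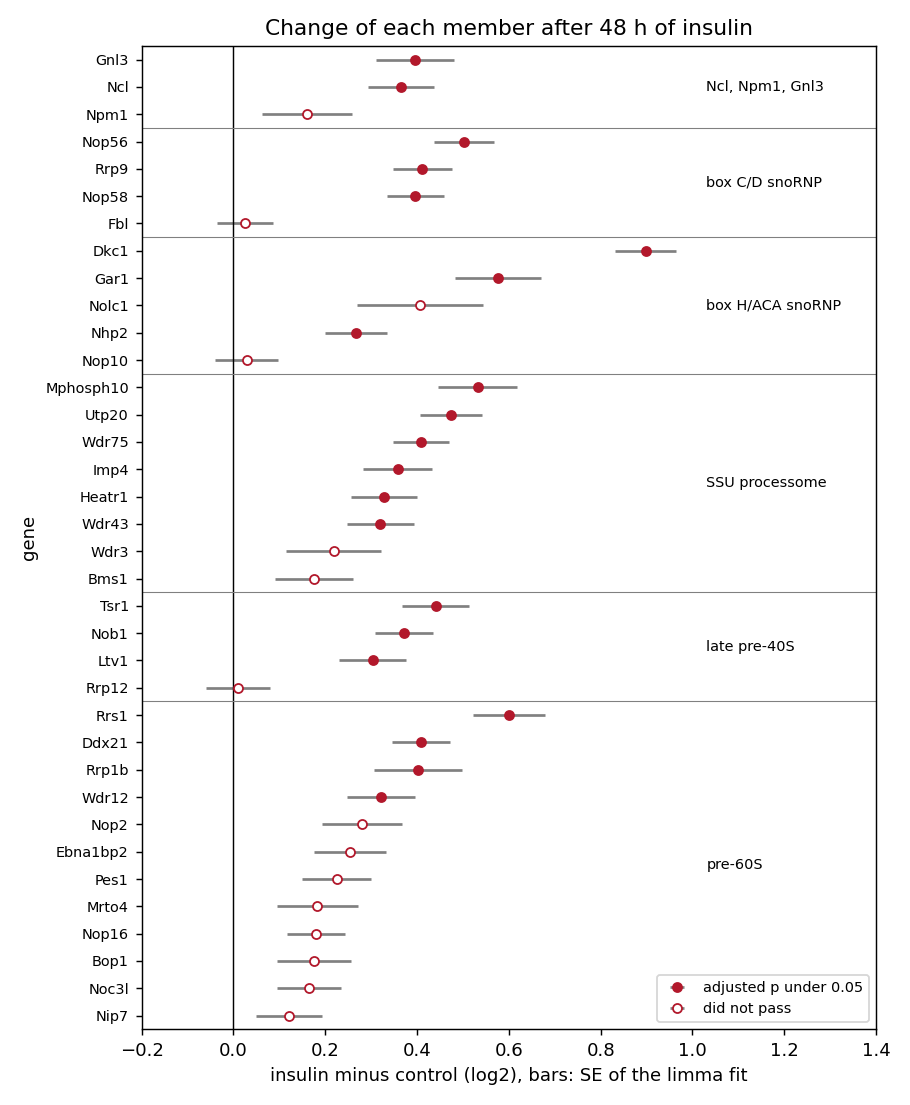
Insulin minus control on the log2 scale for each gene (points, with bars for the SE of the limma fit, 3 arrays per group), filled where the adjusted p was under 0.05. Dkc1 stands alone at 0.90, most filled points lie between 0.27 and 0.60, and open points make up most of the large-subunit group.

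The small-subunit processome folds and cleaves the precursor of the small subunit around the U3 snoRNA. Of its 8 genes here 6 rose, where 9.56% of all tested genes were higher. Wdr3 and Bms1 did not pass, and the median difference of the 8 was 0.34. Mphosph10, which with Imp4 forms a subcomplex bound to U3, had 10.56, 10.61 and 10.57 with insulin and 9.88, 10.16 and 10.11 in controls on the log2 scale. It rose most of the 8, by 0.53 ± 0.086 (SE, limma adjusted p = 0.006). Imp4 had 12.03, 12.17 and 12.14 with insulin and 11.70, 11.86 and 11.72 in controls, and rose by 0.36 ± 0.074 (SE, limma adjusted p = 0.0162). Neither gene's groups overlapped, and control 1 was the lowest array for both.

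Utp20, a very large protein of repeats, was covered by 63 probe sets. Its level was 9.98, 9.95 and 10.10 with insulin and 9.54, 9.50 and 9.55 in controls, a rise of 0.47 ± 0.067 (SE, limma adjusted p = 0.0037). Of its probe sets 21 passed on their own and 62 had a positive difference. Heatr1, another large repeat protein that also acts on polymerase I transcription, had 10.68, 10.79 and 10.88 with insulin and 10.45, 10.45 and 10.47 in controls. It rose by 0.33 ± 0.072 (SE, limma adjusted p = 0.0197), with 45 of 46 probe sets positive and 1 past the threshold on its own.

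Wdr75 and Wdr43 are beta-propeller proteins of the subcomplex that joins the precursor first. Wdr75 had 11.44, 11.47 and 11.40 with insulin and 10.99, 11.05 and 11.04 in controls, and rose by 0.41 ± 0.061 (SE, limma adjusted p = 0.00475). Wdr43 had 11.47, 11.47 and 11.46 with insulin and 11.21, 11.02 and 11.21 in controls, and rose by 0.32 ± 0.073 (SE, limma adjusted p = 0.0222). The replicates of both genes were tight, apart from a low control 2 for Wdr43. Bms1, a GTPase of the processome, had 10.45, 10.47 and 10.40 with insulin and 10.41, 10.28 and 10.11 in controls. Insulin 3 lay below control 1, and its difference of 0.18 ± 0.085 (SE) did not pass (limma adjusted p = 0.209). Wdr3 was at 0.22 without passing (limma adjusted p = 0.199), with 10.51, 10.32 and 10.10 with insulin and 10.07, 10.10 and 10.11 in controls, so that insulin 3 lay among the controls.

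Factors that act on the small-subunit precursor later, up to the cytoplasm, rose in 3 of 4 cases, against 9.56% of all tested genes. Tsr1, a GTPase-like protein of late particles, had 10.78, 10.86 and 10.68 with insulin and 10.28, 10.34 and 10.38 in controls, a rise of 0.44 ± 0.072 (SE, limma adjusted p = 0.00651). Nob1, the endonuclease that makes the last cut of the small-subunit RNA, had 11.57, 11.61 and 11.60 with insulin and 11.15, 11.26 and 11.26 in controls, a rise of 0.37 ± 0.064 (SE, limma adjusted p = 0.008). Ltv1, which has to leave the particle for it to mature, had 11.50, 11.50 and 11.35 with insulin and 11.07, 11.15 and 11.21 in controls, a rise of 0.30 ± 0.073 (SE, limma adjusted p = 0.0282). None of the 3 showed overlap between the groups, and 20.0% of tested genes lay wholly higher on the insulin arrays. Rrp12, an export-related repeat protein, had 10.68, 10.58 and 10.69 with insulin and 10.62, 10.73 and 10.58 in controls. It was the flattest of the 36 genes, with control 2 the highest array and a difference of 0.01 ± 0.070 (SE, limma adjusted p = 0.943) that turned negative in 9 of the 16 alternative settings. Of its 34 probe sets 18 were positive and 16 negative.

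Of 12 measured factors of the large subunit 4 rose and 8 did not pass, where 9.56% of all tested genes were higher. The median difference of the 12 was 0.24. Whether this group differed from the small-subunit groups was not tested. Rrs1, which helps bring the 5S particle into the large subunit in yeast, had 10.52, 10.51 and 10.58 with insulin and 9.88, 9.85 and 10.08 in controls. It rose by 0.60 ± 0.078 on the log2 scale (SE, limma adjusted p = 0.00281), the second largest difference of the 36 genes, and rests on 1 probe set. Ddx21, a DEAD-box RNA helicase that also acts in polymerase I transcription, had 11.95, 12.03 and 11.97 with insulin and 11.53, 11.60 and 11.60 in controls. It rose by 0.41 ± 0.063 (SE, limma adjusted p = 0.00522), with all 16 probe sets positive. Rrp1b, a nucleolar protein that also binds chromatin, had 9.80, 9.70 and 9.50 with insulin and 9.14, 9.32 and 9.34 in controls. Its insulin arrays were spread widely and it rose by 0.40 ± 0.10 (SE, limma adjusted p = 0.0275).

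Pes1, Bop1 and Wdr12 form a complex that is needed for processing of the large-subunit RNA, and of the 3 only Wdr12 passed, though the differences among them were not tested. Wdr12 had 11.83, 11.94 and 11.84 with insulin and 11.44, 11.57 and 11.63 in controls, a rise of 0.32 ± 0.074 (SE, limma adjusted p = 0.0237). Pes1 had 11.71, 11.84 and 11.89 with insulin and 11.59, 11.66 and 11.52 in controls, which did not overlap, and its difference was 0.22 ± 0.075 (SE, limma adjusted p = 0.0832). Bop1 had 12.11, 12.07 and 12.23 with insulin and 11.91, 11.89 and 12.09 in controls, with a difference of 0.18 ± 0.081 (SE, limma adjusted p = 0.188). Bop1's insulin 2 lay just under its control 3.

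The other large-subunit factors did not pass. Nop2, a methyltransferase of the large-subunit RNA, was at 0.28 ± 0.087 (SE, limma adjusted p = 0.0672) and passed in 6 of the 16 alternative settings, among them the brightest probe set (0.37, limma adjusted p = 0.014). Ebna1bp2, a scaffold of early particles, was at 0.25 ± 0.079 (limma adjusted p = 0.0667) and passed in 5 settings. Mrto4, a stand-in for a ribosomal stalk protein during assembly, was at 0.18, and the assembly factors Nop16 and Noc3l at 0.18 and 0.16 (limma adjusted p = 0.21, 0.0974 and 0.159). Mrto4 passed in 3 settings, Nop16 in 4 and Noc3l in 2. All 11 probe sets of Mrto4 were positive, and the median of their differences was 0.29. With the mean of its probe sets Mrto4 was at 0.37 (limma adjusted p = 0.0208). Nip7, which takes part in large-subunit processing in yeast, had 10.81, 11.00 and 10.88 with insulin and 10.73, 10.82 and 10.77 in controls. Its insulin 1 fell between controls 2 and 3, and the difference was 0.12 ± 0.072 (SE, limma adjusted p = 0.312).

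Single probe sets, each covering a short stretch of a gene, moved mostly one way within the 36 genes. Of 553 tested probe sets 522 (94.4%) had a positive difference, against 49.1% of all 148468 tested probe sets, and 106 (19.2%) were higher by limma at an adjusted p of 0.05, against 3.95%. None was lower by limma at an adjusted or an unadjusted p of 0.05. Of all 148468 tested probe sets 1.71% were lower after adjustment, and 13883 were lower at an unadjusted p of 0.05. The 106 came from 25 genes. They include 1 probe set each of Npm1, Nolc1 and Wdr3 and 4 of Nop2, genes that did not pass as a whole. The count depended strongly on the arrays and was 2 to 53 when any 1 array was left out and 284 with array quality weights. The probe sets of a gene share the same RNA and are not replicates.

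**Figure D3:**
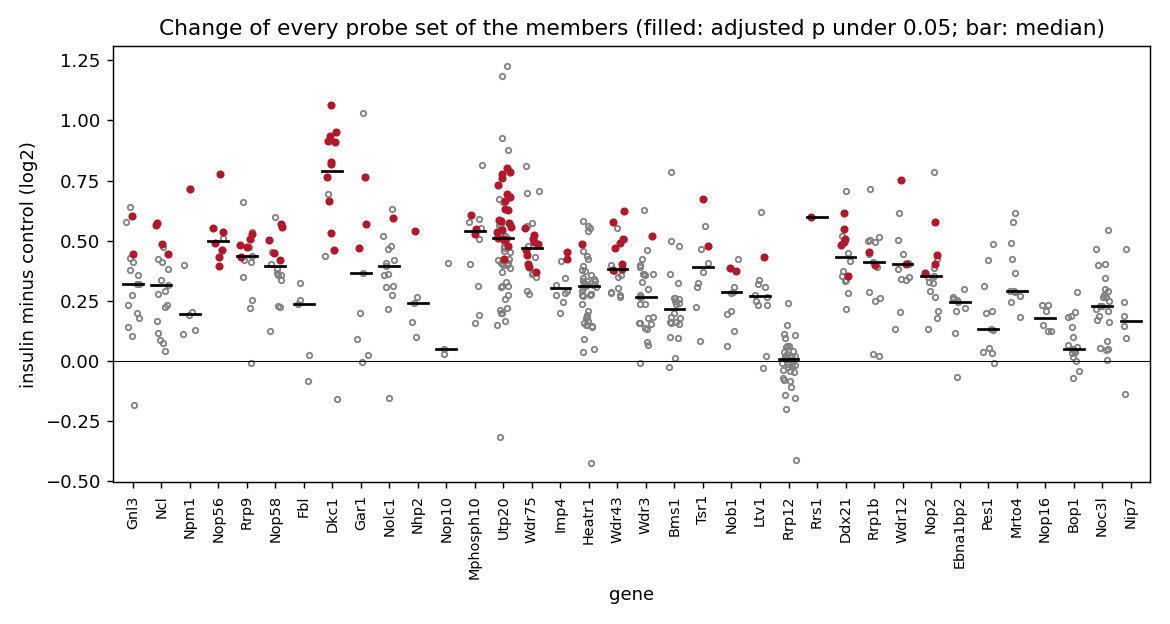
Insulin minus control on the log2 scale for each of the 563 probe sets (circles, filled red where the adjusted p was under 0.05). Each bar is the median of a gene's probe-set differences, with genes in the order of the other plots. The bar can differ from the difference reported for the gene, which uses the median level on each array (for Fbl 0.24 against 0.026). Dkc1's filled probe sets reach from 0.46 to 1.06, while those of Rrp12 scatter on both sides of 0.

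Of 120 further ribosome assembly genes, 118 were measured and tested, of which 32 rose and 86 did not pass by limma, where 9.56% of all tested genes were higher. None was lower by limma at an adjusted or an unadjusted p of 0.05, against 6.35% of all tested genes after adjustment and 1880 of 14291 before it. Their median difference was 0.19 on the log2 scale, and that of all tested genes was -0.0028. The count that rose was 10 to 16 without insulin arrays 1, 2 or 3 or control array 2 in turn. Of 42 small-subunit genes 13 rose, led by Utp15 (0.53 ± 0.075, SE), Nop14 (0.45 ± 0.069) and Noc4l (0.43 ± 0.065), all processome proteins. Of 49 genes listed here for the large subunit, not all of which need act on it alone, 11 rose. They were led by Rrp15 (0.61 ± 0.090), Ftsj3 (0.48 ± 0.068), an RNA methyltransferase, and Nle1 (0.47 ± 0.069). Of these 49, 30 lay higher and 3 lower on all insulin arrays than on all controls, against 20.0% and 15.7% of tested genes. The 3 that lay lower were Sbds (-0.16), Zfp622 (-0.14) and Gnl3l (-0.08). They were picked after their values were seen and did not pass (limma adjusted p = 0.183, 0.182 and 0.478). Sbds and Zfp622 are known to act on the cytoplasmic large subunit.

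Of 17 genes of the RNA exosome and of precursor trimming 7 rose, led by the exosome subunit Exosc8 (0.66 ± 0.10, SE), the exosome nuclease Dis3 (0.57 ± 0.060) and the exosome cofactor Mphosph6 (0.51 ± 0.11). Dis3 had 11.02, 11.02 and 11.07 with insulin and 10.45, 10.50 and 10.46 in controls on the log2 scale. Its groups were tight and far apart (limma adjusted p = 0.00138). Of 10 genes listed for snoRNP assembly, among them Snu13 for a protein of the box C/D snoRNP itself, 1 passed, a share near the 9.56% of all tested genes. It was the AAA+ ATPase gene Ruvbl2, at 0.49 ± 0.059 (SE, limma adjusted p = 0.00195). Snu13, picked after its value was seen, just missed the threshold, at 0.27 ± 0.076 (SE, limma adjusted p = 0.0501).

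**Figure D4:**
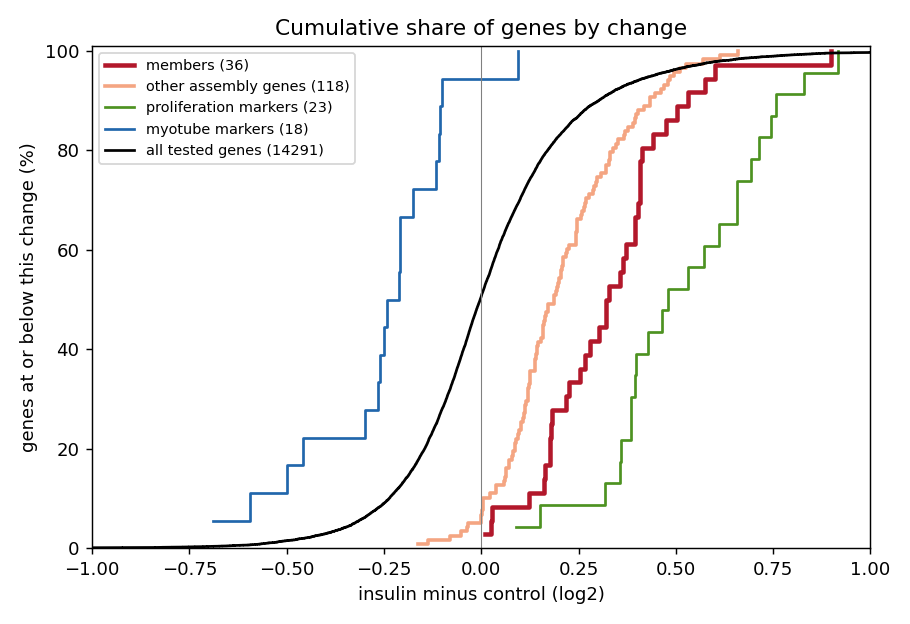
Cumulative share of genes (percent) at or below each insulin-minus-control difference (log2) for the 36 factors, 118 other assembly genes, 23 proliferation markers, 18 myotube markers and all 14291 tested genes, with the axis limited to -1 to 1. The curve of the factors starts just above 0 and has its median at 0.32, between those of the other assembly genes and the proliferation markers.

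The labelled cell type was checked against its markers. All 18 myotube genes passed the filter, with means between 8.48 for Myh2 and 14.1 for Mylpf, while 5 of 6 leukocyte and 4 of 6 endothelial markers were under it. The proliferation list moved the same way as the assembly factors and the myotube list the other way, with median differences of 0.48 and -0.23. Of 23 proliferation markers 20 rose and 3 did not pass, where 9.56% of all tested genes were higher. The mean log2 level of the 23 was 11.50 to 11.52 on insulin arrays and 10.92 to 11.04 on controls. The proliferation markers with the smallest p were Foxm1 (0.74 ± 0.067, SE), Plk1 (0.66 ± 0.065) and Mcm3 (0.76 ± 0.082). Of 18 myotube markers 6 fell and 12 did not pass, where 6.35% of all tested genes were lower. The mean log2 level of the 18 was 12.45 to 12.48 on insulin arrays and 12.63 to 12.79 on controls. Of the 6, those with the smallest p were Mymx, Myh7 and Tnni2: Mymx, a fusion protein gene, fell by 0.60, the slow myosin gene Myh7 by 0.69 and the troponin gene Tnni2 by 0.26.

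Markers of undifferentiated myoblasts went both ways, with 2 rises, 2 falls and 8 that did not pass among 12 tested. Of all tested genes 9.56% were higher and 6.35% lower. The rises were those of Cd34 (0.55) and Myf5 (0.29), the falls those of Id3 (-1.13) and Heyl (-0.44), and Pax7 was at -0.032 without passing. Of 5 tested adipocyte markers Pparg rose (0.65 ± 0.088, SE), where 9.56% of all tested genes were higher. The other 4, Retn (-0.19), Cfd (-0.11), Cidec (-0.078) and Plin1 (-0.026), had negative differences and did not pass. Adipoq, Fabp4 and Lep were under the filter. The part of dividing or unfused cells in the higher level of the assembly factors was not tested.

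**Figure D5:**
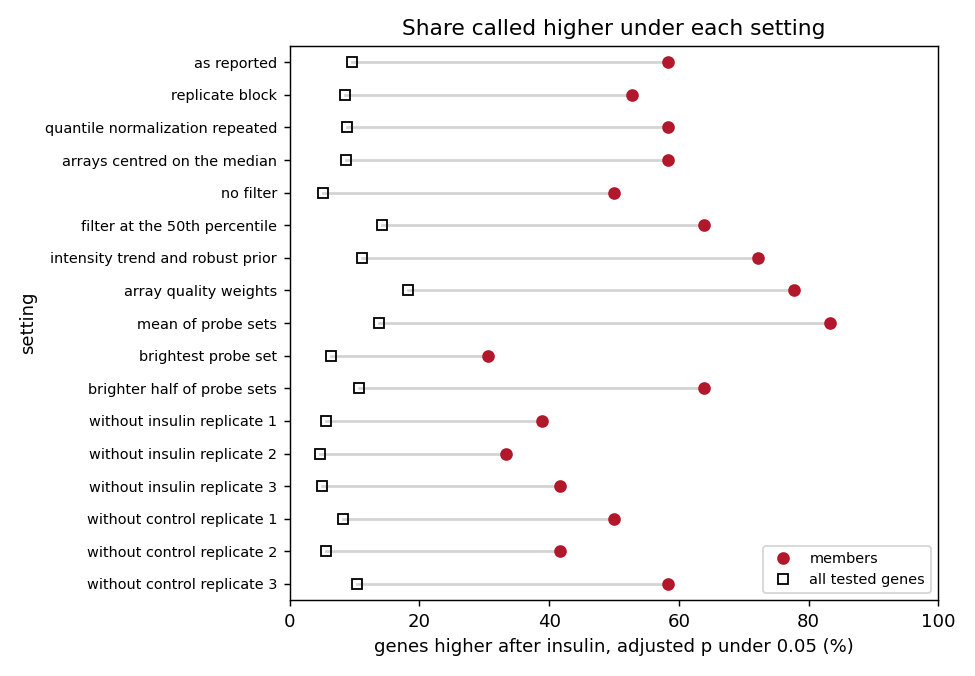
Percentage of genes called higher after insulin (adjusted p under 0.05) among the 36 factors (filled circles) and among all tested genes (open squares), as reported and under each of 16 alternative settings. The factors' share runs from 30.6% with the brightest probe set to 83.3% with the mean of probe sets, and the share of all genes from 4.64% to 18.2%.

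Of the 36 factors, 12 passed limma's test in each of the 6 fits that left out an array. These were Dkc1, Rrs1, Gar1, Mphosph10, Nop56, Utp20, Tsr1, Rrp9, Ddx21, Wdr75, Nop58 and Nob1. For 8 of them (Dkc1, Rrs1, Gar1, Mphosph10, Nop56, Utp20, Rrp9 and Wdr75) the test was passed under all 16 alternatives. Rrs1 has 1 probe set, so the settings that change the probe-set summary could not change its difference. The brightest probe set kept 9 of the 21 genes past the threshold, those 8 and Rrp1b, and put the median of the 36 genes at 0.23. Nip7, Nop10 and Rrp12 passed under none of the alternatives.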

How the data were processed

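Expression was measured on 6 arrays, 3 per group. The values deposited by the authors are log2 expression values, 1 for each probe set on each array, which come from RMA per the submitters' processing notes. No source used here names the log base, which was inferred from the range of 3.15 to 14.6. Depth does not apply to arrays, whose number limits the precision. Scan dates, detection calls and probe intensities were not used here, so a batch that followed the groups cannot be told apart from them.

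Of 241576 probe sets 212097 had exactly 1 gene symbol in the platform annotation, which is old. Symbols of the further lists were updated through RefSeq names (GRCm38.p6). Per gene the median over its probe sets was taken, genes under the 30th percentile of the mean (7.05) were left out, and the difference, insulin minus control, was tested with no covariates (limma 3.58.1 in R 4.3.3, two-sided, functions lmFit and eBayes), with Benjamini-Hochberg adjustment over all 14291 genes. Probe sets were fitted likewise, with the filter at 7.57. SDs are over 3 arrays, and SEs are those of the moderated fit. The fit was checked on simulated data. The 16 alternatives changed the normalization, filter, prior, array weights, probe-set summary, replicate block or left out 1 array. Per-array values are given for genes that passed and for the smallest difference of each role group (and for Nolc1, Wdr3, Pes1 and Bop1, chosen after their values were seen), and every other member with its difference. Of the further assembly genes the 3 largest rises of each class were named, and of the marker lists that moved the 3 genes with the smallest p and the defining genes. The members, lists and naming rule were chosen with earlier results of these data known.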

Additional observations from a re-analysis of the deposited data

How the results depend on the processing

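None of the 36 factors was called lower under any of the 16 alternatives, and 33 kept a positive difference in all of them. The number that rose, 21 as reported, was 19 with the replicate block, 21 after repeated quantile normalization and after centring, 18 without a filter, 23 with the filter at the 50th percentile and with the probe sets at or above the median level, 26 with an intensity trend and robust prior, 28 with array quality weights, 30 with the mean of probe sets and 11 with the brightest probe set, which put the median at 0.23. It ran from 12 to 21 when each array was left out in turn, with the median between 0.32 and 0.34. The further assembly genes that rose, 32 as reported, numbered 21 with the replicate block, 19 without a filter, 59 with array quality weights, 52 with the mean of probe sets and 21 with the brightest probe set, and 10 to 33 with an array left out. Among them 1 was called lower with array quality weights, with the mean of probe sets and with the probe sets at or above the median level. Member probe sets that rose, 106 as reported, numbered 11 with the replicate block, 14 without a filter, 171 with the 50th percentile filter, 219 with the trend and robust prior and 284 with array quality weights, where 1 was lower, and 2 to 53 with an array left out.

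Single genes kept their direction and their side of the threshold in 482 of 576 comparisons, 52 lost and 31 gained a call, and 11 turned negative without a call. Rrp12 gave -0.0063 after repeated quantile normalization, -0.011 after centring, -0.064 with array quality weights, -0.0097 with the mean and -0.030 with the probe sets at or above the median level. With an array left out, Rrp12 ran from -0.021 (without control 3) to 0.052 and was negative without insulin 1, insulin 3, control 1 or control 3, Nop10 ran from -0.0094 (without control 1) to 0.075, and Fbl from -4.1e-04 (without control 3) to 0.041. Same-numbered arrays had correlations of their deviations of 0.025, 0.19 and -4e-04, so the number was not treated as a pairing. The causes of these differences were not tested. Signal over background was not judged.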

Other observations

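Besides the probe sets with a single symbol, 8 were annotated to both Tsr1 and Srr. Of these, 6 had a positive difference between 0.16 and 0.36 on the log2 scale and 2 a negative one, of -0.14 and -0.79, and none passed limma's test over all probe sets. In the lowest of them insulin 1 was at 10.96 and insulin 2 and 3 at 9.59 and 9.42, against 10.80, 10.62 and 10.90 in controls 1 to 3, so that 1 insulin array lay with the controls. The 2 probe sets shared by Npm1, Gm9118 and Gm6477 differed by 0.14 and 0.17 without passing (limma adjusted p = 0.331 and 0.455).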
